A study of Mus musculus with 36 samples.

Results

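Perineuronal nets and the diffuse matrix around neurons are built from a small set of genes. The 10 genes described here were chosen by symbol from that set, and all 10 were found among the 24421 genes of the count tables. They are the lecticans Acan, Bcan, Ncan and Vcan, the link proteins Hapln1 and Hapln4, the tenascins Tnr and Tnc, and the hyaluronan synthases Has2 and Has3. The study sequenced polyadenylated RNA of 2 brain regions, cerebellum and hippocampus, from 18 adult mice, 36 libraries in all, to ask what loss of Pogz, a zinc finger protein of chromatin, does to expression in each tissue. Each of 3 genotypes held 6 animals, 3 males and 3 females. Control animals were Pogzfl/fl and carried no Cre, cKO+/- animals were NesCre/+; Pogzfl/+, and cKO-/- animals were NesCre/+; Pogzfl/fl, all on C57Bl/6. Cre was driven by Nestin regulatory sequence, which acts in neural progenitors, so cells from outside that lineage, such as microglia, keep their Pogz alleles. Control animals carried the floxed alleles too, and no group carried Cre without a floxed allele. Cerebellar libraries held 21421850 to 32544929 counted reads and hippocampal libraries 17609321 to 45544188.

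Lecticans are large secreted proteoglycans with chondroitin sulphate chains. They hold on to hyaluronan, which synthases in the cell membrane spin out, and link proteins lock that bond, while tenascins join the far ends of the lecticans to one another. In perineuronal nets these parts form a lattice around the cell body and proximal dendrites of selected neurons, among them parvalbumin interneurons of the hippocampus and large neurons of the cerebellar nuclei, and Acan is the component most often used to mark such nets.

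Pogz itself was measured first, on the scale used throughout, counts scaled to library size (CPM) with TMM library scaling. Mean Pogz was 96.2 CPM in control cerebellum, 75.4 in cKO+/- and 64.3 in cKO-/-. In the hippocampus the means were 93.6, 78.4 and 63.1 CPM. The counts are of the whole gene, including exons outside the floxed stretch.

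Several libraries stood apart. In the hippocampal library of cKO-/- Sample_1160 the median correlation with the other hippocampal libraries was 0.893, against 0.975 for the second lowest. That library held 11.1 CPM of Tnr and 502 CPM of Bcan, both outside the range of all 3 genotypes in the other hippocampal libraries. It was left out of the hippocampal fits, which leaves 5 cKO-/- hippocampi, and fits with all 18 libraries are given where a call changed. All hippocampal ranges below are without it.

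In the cerebellum, 4 libraries were high in a list of 10 markers of cerebellar nuclei and brainstem neurons. The summed marker level was 131, 133, 146, 155, 164 and 177 CPM in the controls. The cKO+/- libraries held 130, 137, 200, 219, 342 and 387 CPM, and the cKO-/- libraries 119, 164, 180, 260, 372 and 439. The 4 highest were Sample_936, Sample_1433, Sample_1385 and Sample_933, all of them knockouts. Nefh was the most abundant marker in every cerebellar library. Hoxb5 was at 0 in Sample_1385, and Hoxb5 and Hoxa5 were each at 0 in 14 of 18 cerebellar libraries. Choroid plexus markers, summed over 10 genes with Ttr the most abundant, reached 2326, 2969 and 3082 CPM in cerebella Sample_933, Sample_936 and Sample_1433 and no more than 80.3 in the others.

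The numbers of the animals in the labels follow genotype in part. Every control lies in a run of numbers from Sample_1120 to Sample_1219 that also holds 5 knockouts, whereas 3 cKO+/- and 4 cKO-/- animals lie outside it, among them Sample_933, Sample_936, Sample_1385 and Sample_1433. Animals outside this run are all knockouts, so for them number and genotype cannot be told apart. In the hippocampus, choroid plexus markers were high in controls Sample_1129 (5130 CPM) and Sample_1170 (2522) and in cKO-/- Sample_1385 (5245) and Sample_1219 (1188). Hippocampal control Sample_1129 also held cerebellar transcripts, with Gabra6 at 50.5 CPM against 1.12 in the second highest library and Cbln3 at 73.1 against 1.78.

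Levels of the 10 genes were compared with one another as CPM per kilobase of exon (RPKM), in control libraries. In the cerebellum Hapln4 had the highest mean RPKM, 55.8, and Bcan followed at 49.2 with an overlapping range. Then came Tnr at 8.30 and Tnc at 4.17, whose ranges overlap, and Ncan at 2.75, Vcan at 2.44 and Hapln1 at 1.39, each overlapping the next. Has3 at 0.667, Acan at 0.121 and Has2 at 0.0356 RPKM closed the order, with ranges that do not overlap one another. Acan, the usual marker of nets, was thus among the scarcest of the 10 in whole cerebellum.

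In the control hippocampus Bcan had the highest mean RPKM, 93.8, above the whole range of Hapln4 at 42.8 and Ncan at 38.5, which overlap each other. Tnr followed at 18.5 and Hapln1 at 7.47 RPKM, each apart from its neighbours. Vcan at 1.88, Tnc at 1.86, Acan at 1.19 and Has3 at 0.905 RPKM form a run in which each range overlaps the next, and Has2 was lowest at 0.103. Bcan and Hapln4 were thus among the 3 most abundant transcripts of the set in both tissues, while Ncan was among them in the hippocampus only.

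**Figure D1:**
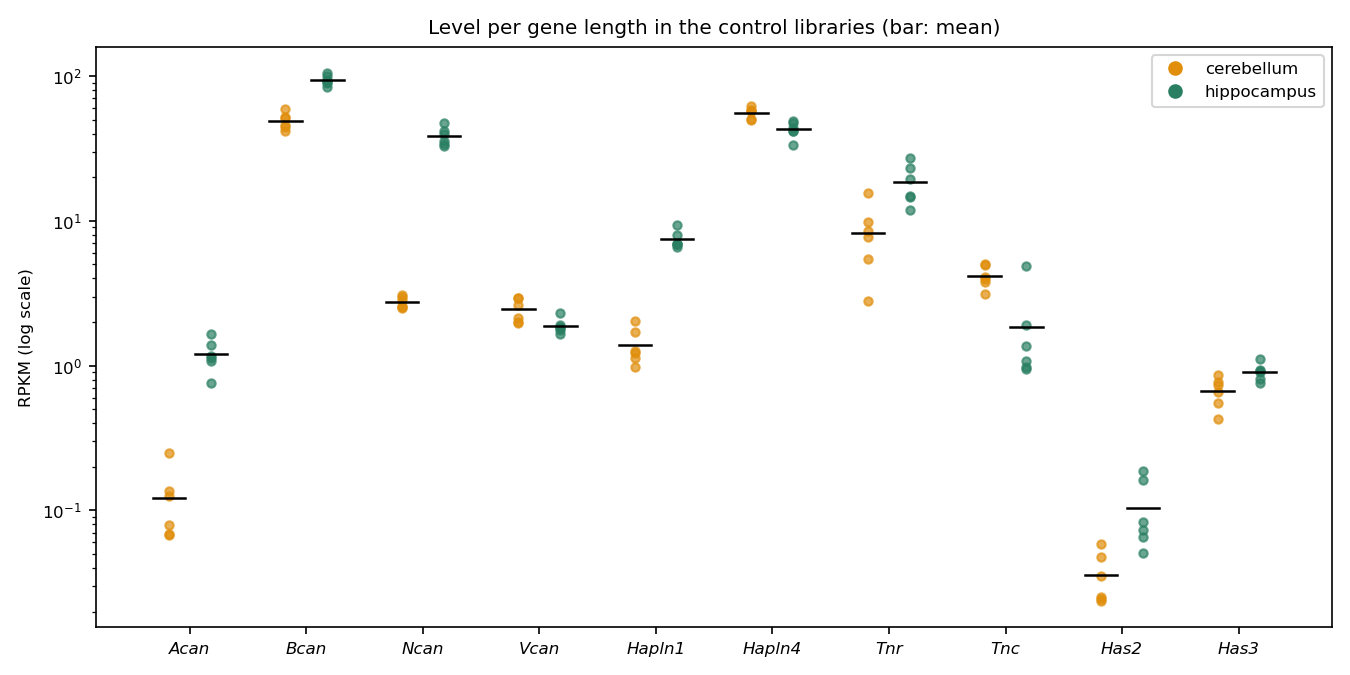
Level of each of the 10 genes in control libraries, in RPKM on a log axis, with 6 cerebellar and 6 hippocampal libraries as points and each mean as a line. Ncan, Acan and Hapln1 are separated furthest toward the hippocampus, with means of 38.5, 1.19 and 7.47 RPKM there against 2.75, 0.121 and 1.39 in the cerebellum.

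Comparing control hippocampus with control cerebellum asks where in the adult brain each matrix gene is used. Of the 10 genes, 9 passed the filter on low counts, and all 9 differed between the tissues at a false discovery rate (FDR) under 0.05 in edgeR. Among all 14870 tested genes 73.3 percent did so, so a difference by itself is the usual state of a gene in this comparison. Higher in the hippocampus were 6 of the 9, against 36.3 percent of all genes, and higher in the cerebellum were 3, against 37 percent. The median log2 difference of the 9 was 0.93, and that of all genes was -0.01. Fewer expressing cells and less RNA per cell cannot be told apart in bulk tissue, here or in any comparison that follows.

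Among the lecticans, Ncan, the neurocan made by neurons and astrocytes, had 17.9 CPM in the lowest control cerebellum, 19.3 at the median and 22.2 in the highest. Control hippocampi held 236, 270 and 342 CPM. The ranges lie far apart, and Ncan was higher in the hippocampus of all 17 animals with both libraries. The log2 difference was 3.80 (SE 0.136, adjusted p = 7.99e-22), a 13.9-fold higher level. Acan, the aggrecan core protein of the dense nets, ran from 0.494 to 1.84 CPM in control cerebella, with a median of 0.757. In control hippocampi it ran from 5.61 to 12.1 CPM with a median of 8.43, again with no overlap. Its log2 difference was 3.29 (SE 0.540, adjusted p = 2.22e-06), or 9.76-fold. Acan was higher in the hippocampus in all 6 controls but in 13 of all 17 animals, since in 4 knockout animals the cerebellar library held more.

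Bcan, brevican, the lectican of mature brain that is also made by glia, ran from 159 to 226 CPM in control cerebella and from 319 to 397 in control hippocampi. Its groups do not overlap, and the log2 difference was 0.93 (SE 0.118, adjusted p = 2.00e-08). Vcan, versican, a lectican of precursor cells and nodes of Ranvier, went the other way. It ran from 29.0 to 43.4 CPM in control cerebella and from 24.3 to 33.8 in control hippocampi, overlapping as groups but higher in the cerebellum of each of the 17 animals. The log2 difference of Vcan was -0.38 (SE 0.104, adjusted p = 0.00165).

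The link proteins split as well. Hapln1, the link protein of cartilage and of forebrain nets, ran from 4.91 to 10.3 CPM in control cerebella and from 33.4 to 47.4 in control hippocampi. It was higher in the hippocampus of all 17 animals, with a log2 difference of 2.42 (SE 0.220, adjusted p = 1.27e-11), or 5.36-fold. Hapln4, the brain link protein of cerebellar and brainstem synapses, ran from 177 to 221 CPM in control cerebella and from 120 to 174 in control hippocampi. Each of the 17 animals had more Hapln4 in the cerebellum, at a log2 difference of -0.38 (SE 0.0990, adjusted p = 0.000869).

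Tnr, tenascin-R, which oligodendrocytes and some neurons secrete into nets, had a log2 difference of 1.12 (SE 0.240, adjusted p = 0.000105). Its control range in the cerebellum, 15.1 to 84.5 CPM, was wide and overlapped the 64.4 to 146 CPM of the hippocampus. Higher hippocampal Tnr was seen in 14 of 17 animals. Tnc, tenascin-C, the tenascin of Bergmann glia and of injured or growing tissue, ran from 22.2 to 35.9 CPM in control cerebella. In control hippocampi it ran from 6.75 to 34.4 CPM, where the highest value is that of control Sample_1129, the library with cerebellar and choroid plexus transcripts. Tnc was lower in the hippocampus by a log2 difference of -1.17 (SE 0.313, adjusted p = 0.00126), and by -1.70 when libraries with high marker sums were left out. Has3, a hyaluronan synthase, was higher in the hippocampus of all 17 animals at a log2 difference of 0.44 (SE 0.137, adjusted p = 0.00491).

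Has2, the other synthase, had 3 to 8 reads per library in control cerebella and 8 to 31 in control hippocampi, and did not pass the filter. Its mean was 0.151 CPM in control cerebella and 0.438 in control hippocampi, and an exact permutation test, two-sided, gave p = 0.00433, adjusted to 0.0130 over 3 tests of Has2, where the smallest possible was 0.00216. Exchanging tissues within the 6 control animals, a test chosen after the values were seen, gave an exact permutation p of 0.03125, the smallest it can give, adjusted to 0.0469, and 0.0625, adjusted to 0.0938, without TMM factors. Has2 was higher in the hippocampus of 15 of 17 animals. Has2 shares 182 exon bases with Has2os on the other strand, so some of these reads may belong to either gene.

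The same contrast within the knockouts gave similar values for most of the genes and others for Acan. Of the 9, 8 differed in cKO+/- animals, beside 72.5 percent of all genes, and 7 in cKO-/- animals, beside 67.8 percent. The log2 difference of Acan was 0.91 (adjusted p = 0.0896) in cKO+/- and 0.50 (adjusted p = 0.386) in cKO-/-, and that of Tnc was -0.69 (adjusted p = 0.0616) in cKO-/-. The 4 cerebella high in nuclei and brainstem markers held 6.46 to 11.1 CPM of Acan, while the other 8 knockout cerebella held 0.368 to 2.51. The hippocampi of those 8 animals, leaving out that of Sample_1160, held 4.85 to 7.99 CPM. The contrast within knockouts was not tested without the 4 cerebella high in these markers. Ncan kept log2 differences of 3.46 and 3.23 there, and Hapln1 of 2.10 and 2.27. Blocking by animal, since both tissues came from the same mice, gave all 9 differences in the paired fit too, with 3.80 for Ncan and 3.37 for Acan.

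Lecticans and link proteins lie side by side in the genome, and 2 such pairs are among the 10 genes. Positions are as in the count tables, whose coordinates are those of GRCm38, although the processing notes name mm9. Ncan (chr8:70093085-70120844, minus strand) ends 2222 bases from Hapln4 (chr8:70083529-70090862, plus strand). Vcan (chr13:89655310-89742512, minus strand) lies 43477 bases from Hapln1 (chr13:89540636-89611832, plus strand). In both pairs the neighbours went opposite ways between tissues, Ncan at a log2 difference of 3.80 beside Hapln4 at -0.38, and Hapln1 at 2.42 beside Vcan at -0.38. Bcan has Hapln2 at 21393 bases, where the log2 differences were 0.93 and -0.52 (adjusted p = 0.0194). Without Sample_1155, Sample_1172 or Sample_1190 Hapln2 was not called, with adjusted p up to 0.0641. Acan has Hapln3 at 1927 bases, which was too low to be tested. The other genes are on chromosomes 1 (Tnr), 4 (Tnc), 15 (Has2) and 8 (Has3).

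Promoters are shown for the 3 genes with the highest tissue differences, Acan, Ncan and Hapln1, which were higher in the hippocampus together, and for Vcan, the neighbour of Hapln1 that was lower. They come from RefSeq on build GRCm38.p6, 300 bases each, 5′ to 3′ on the strand of the gene. Capitals mark matches on either strand to 4 motifs. Among all 32851 promoters listed there, 13.6 percent hold TATAAA, 35.7 percent hold GGGCGG, 37.4 percent hold CCAAT and 7.15 percent hold CACGTG. Entries existed for 7 of the 10 genes, and none for Hapln4, Has2 and Has3. The window of Acan is chr7:79052976-79053275, plus strand, and that of Ncan chr8:70120795-70121094, minus strand. That of Vcan is chr13:89742463-89742762, minus strand, and that of Hapln1 chr13:89540386-89540685, plus strand. The Acan window ends short of the counted gene, which starts at 79053483, while those of Ncan, Vcan and Hapln1 overlap the starts of theirs.
Acan: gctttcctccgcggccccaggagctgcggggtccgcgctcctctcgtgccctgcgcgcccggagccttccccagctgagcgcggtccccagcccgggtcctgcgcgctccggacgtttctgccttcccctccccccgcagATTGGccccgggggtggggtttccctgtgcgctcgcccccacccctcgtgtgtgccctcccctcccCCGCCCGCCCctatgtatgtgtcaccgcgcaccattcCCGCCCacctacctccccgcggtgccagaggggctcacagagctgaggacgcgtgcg
Ncan: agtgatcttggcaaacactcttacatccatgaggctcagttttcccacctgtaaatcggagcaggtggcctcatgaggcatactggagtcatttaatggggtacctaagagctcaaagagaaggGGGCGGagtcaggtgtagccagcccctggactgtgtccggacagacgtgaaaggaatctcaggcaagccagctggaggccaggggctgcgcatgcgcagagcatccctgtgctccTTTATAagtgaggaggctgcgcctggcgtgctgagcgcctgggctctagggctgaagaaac
Hapln1: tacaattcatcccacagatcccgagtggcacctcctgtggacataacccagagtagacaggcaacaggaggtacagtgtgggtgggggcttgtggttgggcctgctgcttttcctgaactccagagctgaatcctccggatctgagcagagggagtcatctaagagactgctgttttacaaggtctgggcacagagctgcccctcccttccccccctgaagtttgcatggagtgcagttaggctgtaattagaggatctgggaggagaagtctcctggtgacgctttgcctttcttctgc
Vcan: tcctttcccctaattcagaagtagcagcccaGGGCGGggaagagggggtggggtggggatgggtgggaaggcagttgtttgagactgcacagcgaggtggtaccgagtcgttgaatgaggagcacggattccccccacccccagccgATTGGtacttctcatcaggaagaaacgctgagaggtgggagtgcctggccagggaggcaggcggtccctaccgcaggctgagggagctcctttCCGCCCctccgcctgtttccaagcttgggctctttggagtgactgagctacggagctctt
GC content was 74 percent for Acan, 56.7 for Ncan, 54.3 for Hapln1 and 61 for Vcan, beside a median of 52.7 over all promoters. The Acan window held 3 GGGCGG matches, 2 of them overlapping, and 1 CCAAT, and the Ncan window 1 TATAAA and 1 GGGCGG. Vcan held 2 GGGCGG and 1 CCAAT, and Hapln1 held none of the 4 motifs. No motif was held by all 3 of the genes that were higher in the hippocampus together, and a match is a description of letters and not of a binding site.

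Genes that act on the same matrix were compared between the tissues too. Of 20 tested genes for chondroitin sulphate synthesis, 11 were higher and 3 lower in the hippocampus, 70 percent in all and near the 73.3 percent of all genes, with a median log2 difference of 0.26 beside -0.01 for all genes. Chsy3, a chondroitin synthase, was at 0.198 CPM in control cerebellum and 7.50 in control hippocampus, a log2 difference of 5.21 (adjusted p = 2.45e-14). Chpf2, a chondroitin polymerising factor, was higher by 0.99, while Csgalnact2 and Ust were lower at -0.63 and -0.68. Among 19 receptors and partners of nets, 12 were higher and 3 lower, 78.9 percent in all, with a median of 0.62. Rtn4rl2, a member of the Nogo receptor family, had 0.0451 CPM in cerebellum and 54.2 in hippocampus, and Nptx2, a pentraxin held in nets, 0.966 and 41.7. Sema3a, a guidance protein bound by nets, was lower in the hippocampus, 4.37 CPM against 33.7, and Cd44, a hyaluronan receptor, was lower by a log2 difference of -1.73.

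Among all genes 36.3 percent were higher in the hippocampus and 37 percent higher in the cerebellum. Matrix-cutting enzymes and their inhibitors split 9 higher and 8 lower of 21, with Mmp17 and Adamts20 at log2 differences of 2.38 and 2.12, and Timp4 and Adamts15 at -2.27 and -2.15. Other proteoglycans of brain split 8 and 8 of 18, with Gpc4 at 2.89 and Cspg5 at 1.37 on one side, and Sdc1 at -3.52 and Gpc6 at -1.99 on the other. Genes of fast-spiking and other net-bearing neurons were mostly higher in the cerebellum, 14 of 21, with 6 higher in the hippocampus and a median of -1.09. Pvalb was at 713 CPM in control cerebellum and 34.8 in hippocampus, whereas Kcnc2, a potassium channel of fast-spiking neurons, was at 1.43 and 124. Lhx6, a transcription factor of interneurons, was higher in the hippocampus by a log2 difference of 5.36, and Syt2, a synaptotagmin of fast synapses, lower at -4.10. Of the relatives outside the 10 genes, Tnxb was higher in the hippocampus (2.37) and Hapln2 lower (-0.52). Tissue identity was clear in the marker lists. All 12 markers of granule and Purkinje neurons were lower in the hippocampus, and 11 of 12 markers of hippocampal neurons were higher.

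**Figure D2:**
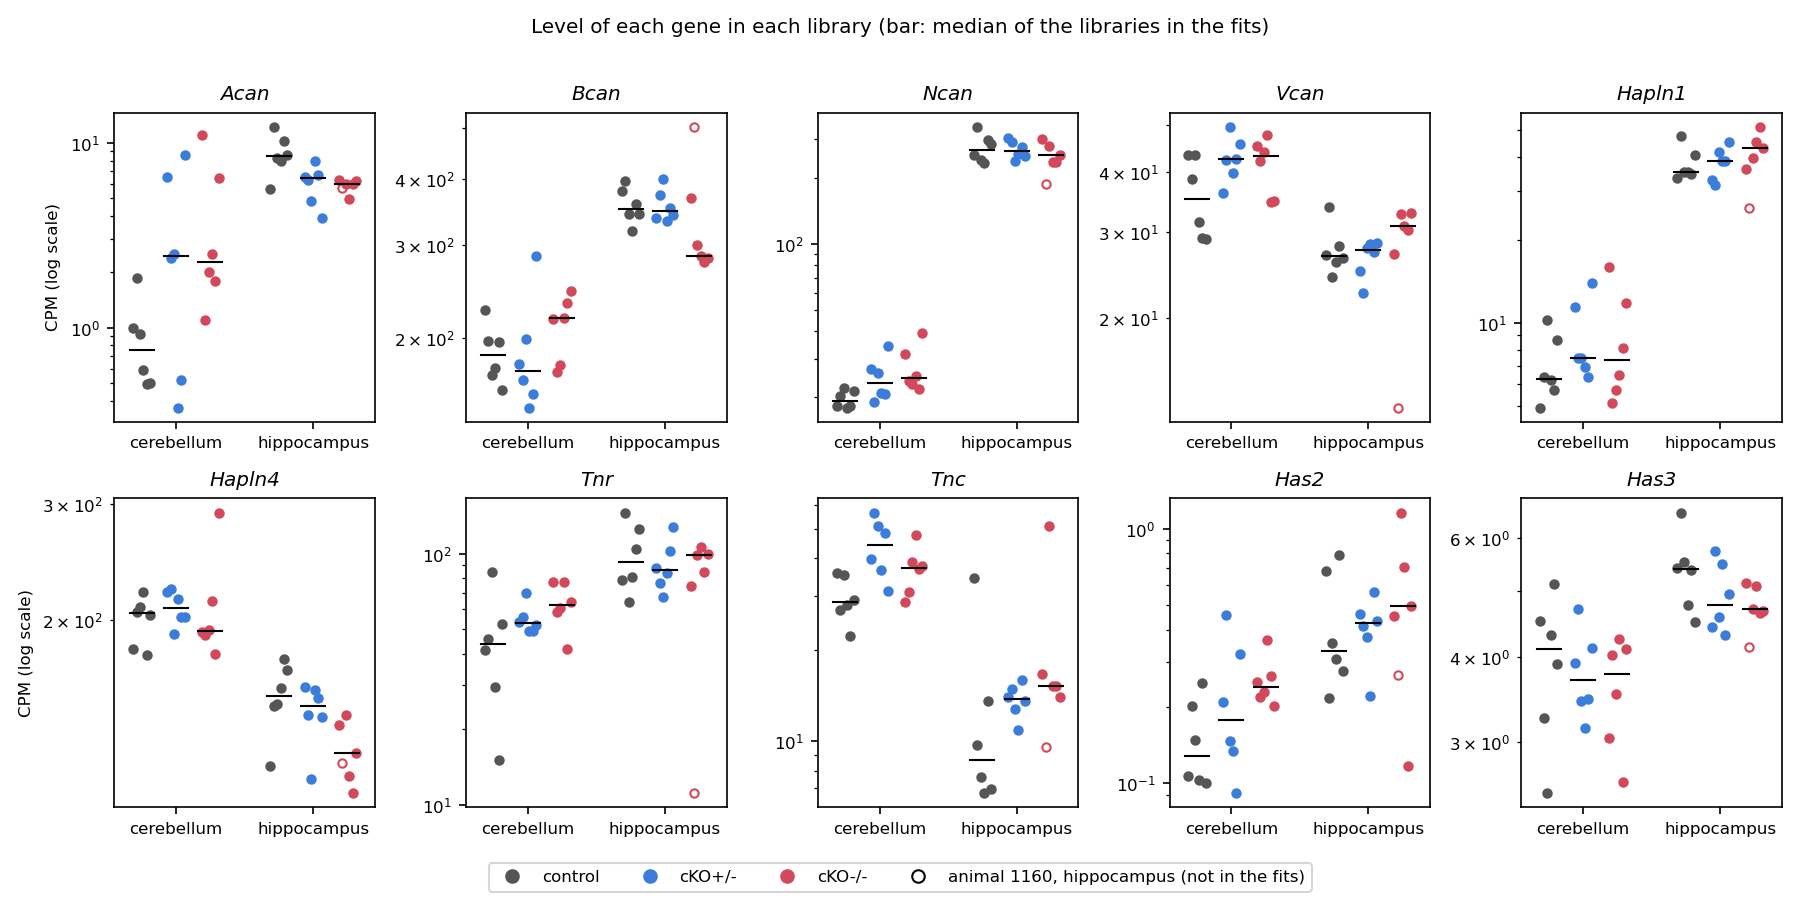
Level of each of the 10 genes in every library, in CPM on log axes, by tissue and genotype, with medians as bars and the hippocampal library of Sample_1160 as an open circle. Acan in the cerebellum reaches 11.1, 8.54, 6.56 and 6.46 CPM in knockouts Sample_936, Sample_1433, Sample_933 and Sample_1385, and no other cerebellar library exceeds 2.51.

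Losing Pogz alleles was then compared with the level of each gene in the cerebellum, as a log2 change per lost allele over 0, 1 and 2 lost alleles, with sex in the model. Ncan was called among the 9 tested genes at an FDR under 0.05, and 1916 of all 14027 tested genes, 13.7 percent, were called too, so 1 of 9 is near the background and is not a result about the set. Positive changes were seen in 8 of the 9, with a median of 0.16 beside 0.00 for all genes. At a raw p under 0.05 there were 2 of 9 and 4233 of all genes. DESeq2 called 2, Acan and Ncan, and 18.3 percent of all genes.

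Ncan ran from 17.9 through 19.3 to 22.2 CPM in the control cerebella. In cKO+/- it ran from 18.98 through 23.3 to 34.4 CPM and in cKO-/- from 21.8 through 24.4 to 39.4. The groups overlap at their low ends, but 3 of 6 cKO+/- and 5 of 6 cKO-/- libraries lie above the highest control. Ncan rose by 0.23 per lost allele (SE 0.0761, adjusted p = 0.0465). The call depends on single animals, for it held in 5 of 18 fits that each left out 1 animal, with changes of 0.16 (without Sample_1385, adjusted p = 0.151) to 0.27. With genotype as a factor it was lost in cKO-/- against control (0.47, adjusted p = 0.0513), and with no filter on low counts the adjusted p was 0.0538.

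Acan ran from 0.494 through 0.757 to 1.84 CPM in controls. In cKO+/- cerebella it ran from 0.368 through 2.43 to 8.54 CPM, and in cKO-/- from 1.09 through 2.25 to 11.1. Above the highest control were 4 of 6 libraries of each knockout group, and the 4 highest libraries of all were the 4 with high nuclei and brainstem markers. Acan is a low-count gene here, with 15 to 55 reads in each control library, and it passed the filter mainly through the knockouts, since 1 of 6 controls, 4 of 6 cKO+/- and 6 of 6 cKO-/- exceeded 1 CPM. Its change per lost allele was 1.04 (SE 0.356, adjusted p = 0.0566), which misses the threshold. Without Sample_1160, Sample_1219 or Sample_1433 it passed, with a lowest adjusted p of 0.0330, and in a model with genotype as a factor it was called in cKO-/- against control at 2.17 (adjusted p = 0.0423).

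The other lecticans moved less. Bcan ran from 159 to 226 CPM in controls, 147 to 286 in cKO+/- and 173 to 246 in cKO-/-, overlapping widely, at 0.08 per lost allele (adjusted p = 0.495). Vcan ran from 29.0 to 43.4, 36.2 to 49.5 and 34.6 to 47.5 CPM, at 0.10 (adjusted p = 0.312). All 6 cKO+/- and 4 of 6 cKO-/- libraries lay above the control median of Vcan, within overlapping ranges.

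Of the link proteins, Hapln1 ran from 4.91 to 10.3 CPM in controls and reached 15.9 in cKO-/-, at 0.16 per lost allele (adjusted p = 0.448). Hapln4 had medians of 205, 209 and 192 CPM across the 3 groups and a change of 0.03 (adjusted p = 0.723), which turned to -0.03 without Sample_1385. Its highest library was that animal's, 291 CPM, while the other cKO-/- libraries lay among the controls. Tnr ran from 15.1 to 84.5 CPM in controls, wider than the 49.3 to 69.7 of cKO+/- and the 41.8 to 77.1 of cKO-/-, at 0.25 (adjusted p = 0.207). Without control Sample_1170 the change of Tnr was 0.38 (adjusted p = 0.0428), and without control Sample_1190 it was 0.15 (adjusted p = 0.339).

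Tnc, at 22.2 to 35.9 CPM in controls, ran from 31.3 to 56.6 in cKO+/- and from 28.8 to 47.7 in cKO-/-. Above the highest control lay 5 of 6 cKO+/- and 4 of 6 cKO-/- libraries, yet the cKO+/- median of 44.1 exceeded the cKO-/- median of 37.3, and the change per allele was 0.16 (adjusted p = 0.267). Has3 had medians of 4.11, 3.70 and 3.78 CPM and a change of -0.08 (adjusted p = 0.579). Has2 had a mean of 0.151 CPM in controls and 0.255 in cKO-/-, and the two-sided exact permutation test gave p = 0.0173, adjusted to 0.0260 over the 3 tests. With the tissue test made within animals the adjusted p was 0.0469, and without TMM factors as well it was 0.0584, which misses the threshold. The edgeR fit with no filter on low counts tested Has2 as well and did not call it. At 3 to 13 reads per library these counts are few, and 3 of 6 cKO-/- libraries lie above the highest control.

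Values that rest on the 4 libraries high in nuclei and brainstem markers were fitted again in 3 ways. With those libraries left out, Acan had a change of 0.52 (adjusted p = 0.226) and Ncan of 0.12 (adjusted p = 0.147). edgeR called 0 of the 9 genes there, with 3 at a raw p under 0.05, beside 4.72 percent of all genes called. With the marker sum as a covariate in all 18 libraries, Acan had 0.37 (adjusted p = 0.199) and Ncan 0.13 (adjusted p = 0.202). That fit called 0 of 9 too, with 2 at a raw p under 0.05 and 6.39 percent of all genes called. With a covariate for animals outside the run of numbers that holds the controls, Acan had 0.29 (adjusted p = 0.694) and Ncan 0.13 (adjusted p = 0.492), 0 of 9 were called by edgeR, 0 had a raw p under 0.05, and 2.2 percent of all genes were called. DESeq2 was not run with these terms. Hapln1 turned from 0.16 to -0.07, -0.10 and -0.13 in the 3 fits, while Tnc and Tnr stayed between 0.12 and 0.23.

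**Figure D3:**
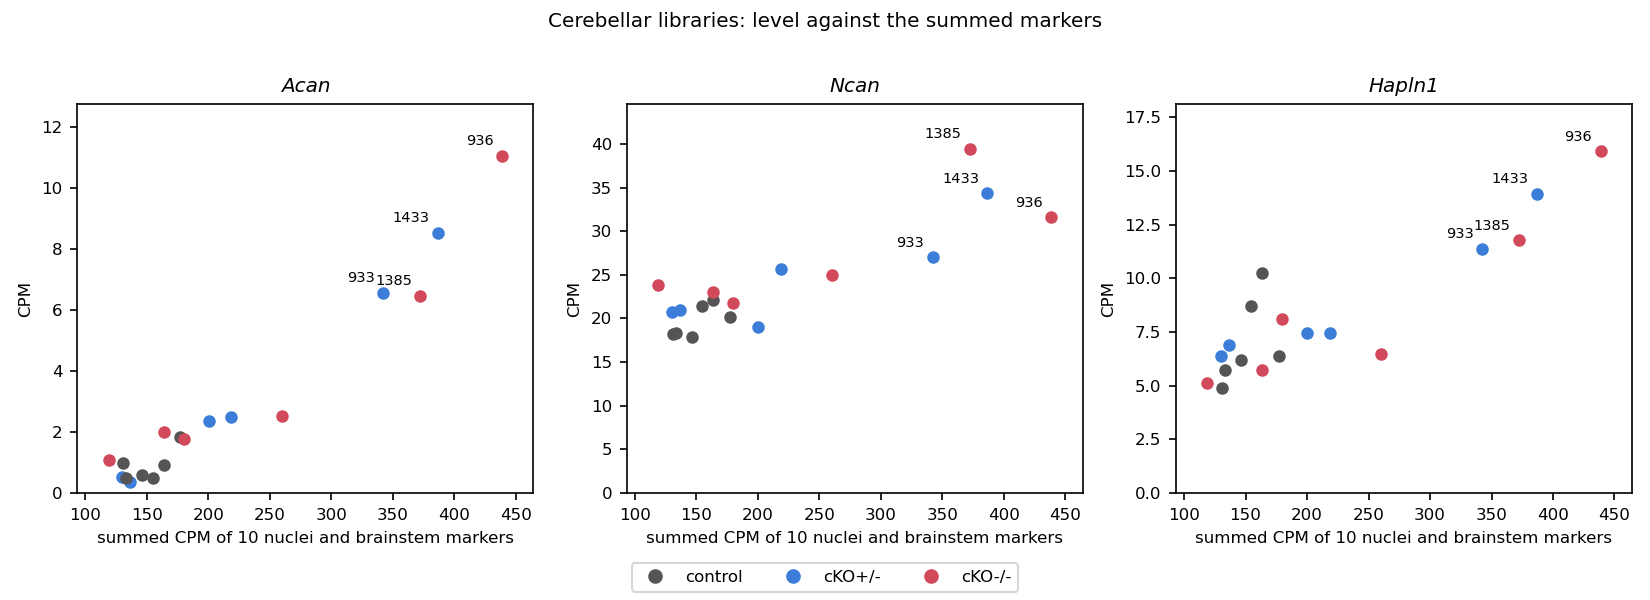
Acan, Ncan and Hapln1 in each cerebellar library (vertical axis, CPM) against the summed level of 10 nuclei and brainstem markers (horizontal axis, CPM), with genotypes by colour and animal numbers at the 4 highest libraries. Those 4, at 342 to 439 CPM of markers against 131 to 177 in controls, hold the 4 highest Acan values.

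**Figure D4:**
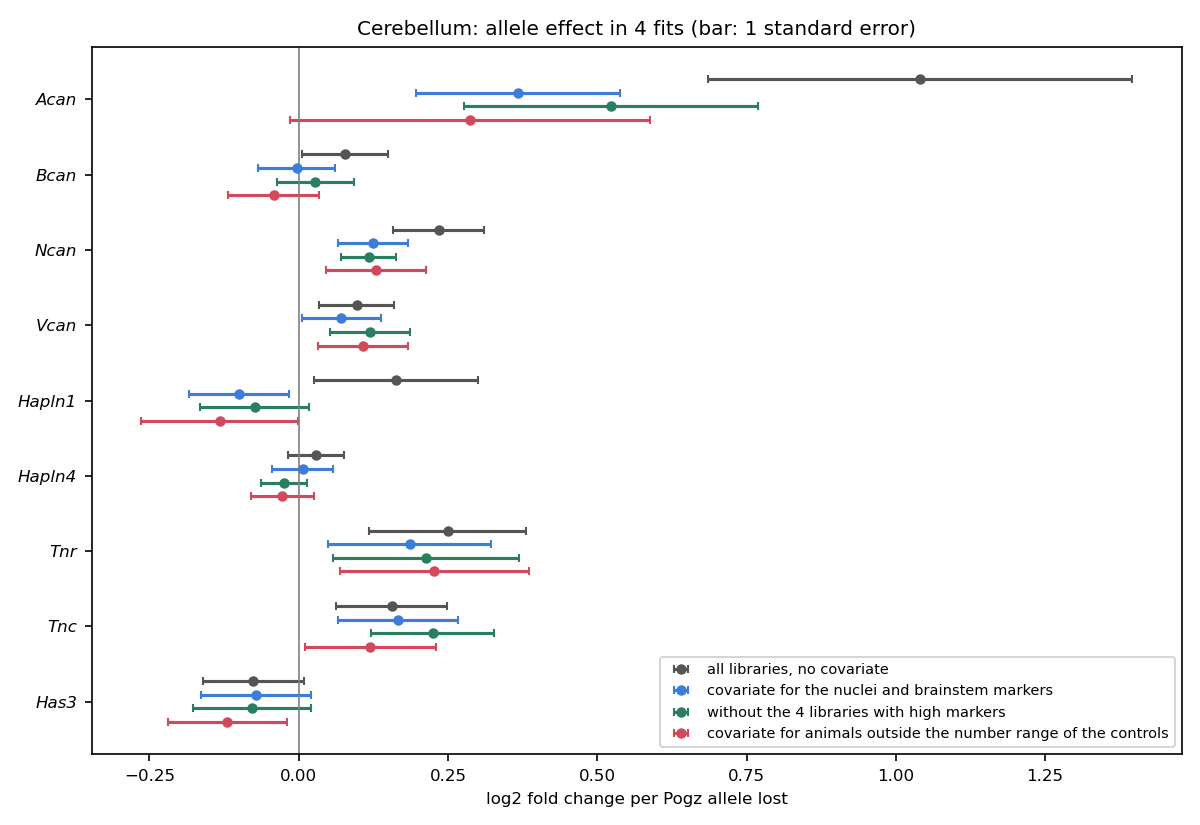
Log2 change per lost Pogz allele in the cerebellum for the 9 tested genes under 4 fits, with bars of 1 SE. Acan is at 1.04 in all 18 libraries, 0.52 without the 4 libraries with high markers, 0.37 with the marker covariate and 0.29 with the number covariate.

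Other marker lists moved in the cerebellum as well, and their part in the changes of Acan and Ncan was not tested. Among all genes 13.7 percent were called there. Of 10 meningeal fibroblast markers 8 rose, with the smallest adjusted p for Col1a2 at 0.45 and Igf2 at 0.58 per lost allele, and their sum ran from 230 to 320 CPM in controls, 304 to 485 in cKO+/- and 316 to 637 in cKO-/-, with Igf2 most abundant. Of 12 astrocyte and Bergmann glia markers 5 rose, with Aqp4 at 0.33 and Gfap at 0.52, and sums of 5863 to 6802 CPM in controls and 6457 to 8573 in cKO-/-. Microglia (4 of 10), oligodendrocyte (4 of 10), parvalbumin interneuron (4 of 9) and hippocampal neuron markers (3 of 8) had rises and no falls. Their control medians were 157, 5099, 2719 and 1231 CPM, and their cKO-/- medians 201, 6545, 2889 and 1156. No call was made by edgeR in the granule and Purkinje, nuclei and brainstem, oligodendrocyte precursor, endothelial or choroid plexus lists.

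Around the nets, 8 of 20 tested matrix-cutting enzymes and inhibitors, 40 percent beside 13.7 percent of all genes, changed in the cerebellum, 7 of them upward, with a median of 0.12 beside 0.00 for all genes. Mmp14, a membrane-bound metalloproteinase, rose by 0.44 per lost allele, from a mean of 15.7 CPM in controls to 29.1 in cKO-/-. Mmp15 rose by 0.42, and the lectican-cutting proteases Adamts5 and Adamts1 by 0.51 and 0.35. Mmp17 fell by 0.35. In the fit without the 4 libraries 6 of the list were called, Mmp14, Mmp15, Adamts5 and Adamts1 among them, beside 4.72 percent of all genes. With the number covariate 3 of 20 were called, Mmp14, Mmp15 and Adamts5, beside 2.2 percent of all genes.

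Chondroitin sulphate synthesis had 5 of 20 genes called, 25 percent beside 13.7 percent of all genes, all upward, with a median of 0.05. Chsy3 rose by 1.44 (adjusted p = 0.000736), from 0.198 to 1.67 CPM. It was under 1 CPM in all 6 controls, with 3 to 11 reads, and passed the filter through 2 cKO+/- and 5 cKO-/- libraries. With no filter it was called at 1.46. Dse, an epimerase that turns chondroitin into dermatan sulphate, rose by 0.41, the sulphotransferase Chst11 by 0.17 and the chain-starting enzyme Csgalnact1 by 0.22. In the fit without the 4 libraries Dse and Chst11 were called, and Chsy3 was too low to be tested there. With the number covariate Chsy3 was called, at 0.99, and Dse, Chst11 and Csgalnact1 were not. Csgalnact1 also lost its call without Sample_936, Sample_1190 or Sample_1385, with adjusted p up to 0.0662. Of 18 other proteoglycans 4 rose and 1 fell, 27.8 percent in all beside 13.7 percent of all genes, with a median of 0.01. Cspg5, a neuronal transmembrane proteoglycan, rose by 0.19, Spock3 by 0.21 and Sdc2 by 0.13, and Sdc4, a syndecan, fell by 0.20. With the number covariate Sdc4 was called and the rises were not, and without Sample_936 Sdc2 was not called (adjusted p = 0.0501).

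Sema3a, the guidance protein that nets bind, rose by 0.66 per lost allele (SE 0.0741, adjusted p = 1.23e-05), from a mean of 33.7 CPM in control cerebella to 85.2 in cKO-/-. It was called in the fit without the 4 libraries at 0.73 and with either covariate at 0.75. Of 18 tested receptors and partners, Sema3a among them, 22.2 percent were called, beside 13.7 percent of all genes, with a median of 0.09. Besides Sema3a, Crtac1 rose by 0.63, Cd44 rose by 0.18, and Ptprs, a receptor for chondroitin sulphate, fell by 0.13. With the number covariate Sema3a alone of these was called. Ptprs held its call in 4 of 18 fits without 1 animal, with changes of -0.15 to -0.09, and Crtac1 and Cd44 in 15 of 18 each, with adjusted p up to 0.0893 (without Sample_1385) and 0.0587 (without Sample_1172). Net-bearing neuron genes had 4 of 20 called, 20 percent beside 13.7 percent of all genes, all upward, with a median of 0.17. This share is near that of all genes. Gad2 rose by 0.25 and Slc32a1 by 0.15, both of inhibitory transmission, while the peptide gene Tac1 rose by 1.98 and Kcnc2 by 1.65. Tac1 was under 1 CPM in all 6 controls and passed the filter through 2 cKO+/- and 5 cKO-/- libraries. Without Sample_1385 the calls of Tac1 (1.41, adjusted p = 0.0808), Kcnc2 (1.16, adjusted p = 0.147) and Slc32a1 (0.12, adjusted p = 0.0831) were lost. Kcnc2 and Slc32a1 also lost theirs without Sample_1129 or Sample_1190, Kcnc2 without Sample_1172 and Slc32a1 without Sample_1371. With the number covariate edgeR called none of the net-bearing neuron genes, and without the 4 libraries it called Gad2. Of 4 tested relatives of the set edgeR called none.

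In the hippocampus the same question gave no call. edgeR called 0 of the 9 tested genes, 3 had a raw p under 0.05, and 4.44 percent of all 14339 tested genes were called, with 2883 at a raw p under 0.05. DESeq2, which gave a p-value for 8 of the 9, called 2, Acan and Hapln4, and 7.36 percent of all genes. With all 18 libraries edgeR called 0 of 9 again, with 2 at a raw p under 0.05, and 1.72 percent of all genes. The median change of the 9 was -0.05 beside 0.00 for all genes, and 6 of 9 were negative.

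Acan ran from 5.61 through 8.43 to 12.1 CPM in control hippocampi. It ran from 3.92 through 6.40 to 7.99 CPM in cKO+/- and from 4.93 through 5.99 to 6.25 in cKO-/-. All 6 cKO+/- and all 5 cKO-/- libraries lie below the control median, with 2 and 1 of them below the lowest control. The change was -0.30 per lost allele (SE 0.0911, adjusted p = 0.0738), and -0.29 (adjusted p = 0.130) with all 18 libraries. It passed in the fits without control Sample_1129 and without Sample_1433, in the latter with an adjusted p of 0.0328.

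Bcan ran from 319 through 352 to 397 CPM in controls, 333 through 347 to 401 in cKO+/- and 279 through 286 to 368 in cKO-/-. Of 6 cKO+/- libraries 1 lies above the highest control and none below the lowest, and 4 of 5 cKO-/- libraries lie below the lowest control. Its change was -0.11 (SE 0.0417, adjusted p = 0.147), and -0.04 with the library of Sample_1160, whose Bcan was the highest. Without Sample_936, the highest cKO-/- library in the fit, Bcan passed at -0.14 (adjusted p = 0.0490). Ncan, with medians of 270, 267 and 256 CPM, changed by -0.04, and Vcan, with medians of 26.8, 27.6 and 30.9 CPM, by 0.08, both with overlapping groups.

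Hapln4 ran from 120 through 153 to 174 CPM in controls, 115 through 148 to 158 in cKO+/- and 109 through 126 to 144 in cKO-/-. All 5 cKO-/- libraries lie below the control median and 2 below the lowest control. The change was -0.14 (SE 0.0431, adjusted p = 0.0842), and it passed without control Sample_1129 (adjusted p = 0.0329). Hapln1, with medians of 35.1, 38.6 and 42.95 CPM, had a change of 0.10 (adjusted p = 0.330).

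Tnc ran from 6.75 through 8.69 to 34.4 CPM in control hippocampi, 10.9 through 13.8 to 15.9 in cKO+/- and 13.97 through 15.2 to 51.1 in cKO-/-. The highest control is Sample_1129 and the highest cKO-/- library is Sample_1219, both of them high in choroid plexus markers, and the other cKO-/- libraries lie close together. The remaining choroid-rich libraries were not high in Tnc, with 13.97 CPM in cKO-/- Sample_1385 and 7.64 in control Sample_1170. The change was 0.37 (SE 0.210, adjusted p = 0.336). Without control Sample_1129 it was 0.66 (adjusted p = 0.0129), and without Sample_1219 it was 0.12. Tnr, with medians of 92.4, 85.8 and 99.0 CPM, had -0.05, and Has3, with 5.40, 4.77 and 4.72, had -0.07. Has2 had means of 0.438 CPM in controls and 0.586 in cKO-/-, with a two-sided exact permutation p of 0.465.

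Leaving out the 4 libraries high in choroid plexus markers gave -0.40 for Acan (adjusted p = 0.103), -0.19 for Hapln4 (adjusted p = 0.0793) and 0.41 for Tnc (adjusted p = 0.0648). edgeR called 0 of the 9 in that fit, with 3 at a raw p under 0.05, and 1.08 percent of all genes. With the number covariate 0 of 9 were called by edgeR, 3 had a raw p under 0.05, and 0.474 percent of all genes were called, with Acan at -0.22 (adjusted p = 0.848). In the main fit 4.44 percent of all genes were called. Among other marker lists 4 of 10 endothelial and mural markers rose there, Rgs5 by 0.41 and Cdh5 by 0.27, with sums of 167 to 193 CPM in controls and 189 to 293 in cKO-/-. With all 18 libraries edgeR called none of the 10 endothelial markers, and without Sample_1371, Sample_1379 or Sample_1385 it called none of the 4. Over the 18 fits without 1 animal Rgs5 was called in 15, Cdh5 in 12, Kdr in 11 and Pecam1 in 7. Aqp4 and Hopx rose among 12 astrocyte markers, Lum among 10 meningeal and Ugt8a among 10 oligodendrocyte markers. Wfs1 fell by 0.50 among 12 hippocampal neuron markers. With all 18 libraries Hopx, Lum and Wfs1 kept their calls, while Aqp4 and Ugt8a lost theirs. Lum held its call in 11 of 18 fits without 1 animal and Ugt8a in 8. In the granule and Purkinje, nuclei and brainstem, parvalbumin, precursor, microglia and choroid plexus lists edgeR called none. Apart from the fit without the choroid-rich libraries, the part of any list in the values of Acan or Tnc was not tested.

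Tnxb, tenascin-X, is a relative outside the 10 genes. Among the 10 genes and the related matrix lists compared here, it had the smallest adjusted p in the hippocampus. It fell by 0.52 per lost allele (SE 0.0684, adjusted p = 0.000190), from a mean of 24.8 CPM in controls to 11.6 in cKO-/-, and was called with all 18 libraries, without the choroid-rich libraries and with the number covariate (-0.50, adjusted p = 0.0131). In the cerebellum its means were 4.80 and 4.96 CPM. Of 20 matrix-cutting genes Mmp14 and Mmp15 rose, by 0.33 and 0.28, and Adamts20 and Timp4 fell, by 0.31 and 0.10. Sdc4 fell by 0.27 as 1 of 18 proteoglycans, Xylt1, which starts the chains, rose by 0.21 as 1 of 20 synthesis genes, and Scn4b, a sodium channel subunit, fell by 0.41 as 1 of 20 net-bearing neuron genes. Of 19 receptors and partners edgeR called none. Among all genes 4.44 percent were called. List medians were 0.06 for the matrix-cutting genes, 0.02 for proteoglycans, 0.00 for synthesis, -0.02 for receptors and -0.03 for net-bearing neuron genes. Other than Tnxb, each of these calls was lost with the number covariate. With all 18 libraries those of Sdc4, Xylt1 and Timp4 were lost, and Xylt1 and Timp4 held theirs in 8 and 12 of 18 fits without 1 animal.

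**Figure D5:**
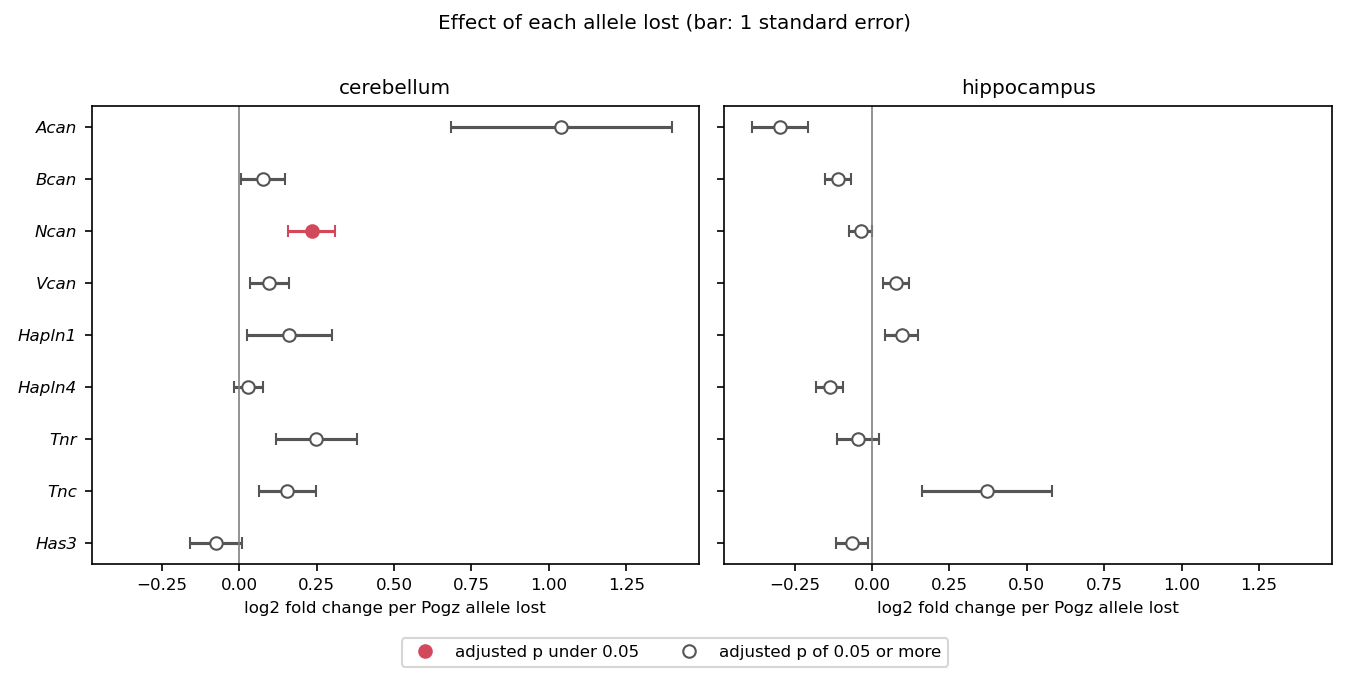
Log2 change per lost Pogz allele of the 9 tested genes in the cerebellum (18 libraries) and the hippocampus (17 libraries), as points with bars of 1 SE. Acan lies at 1.04 in the cerebellum and -0.30 in the hippocampus, and the filled cerebellar point is Ncan at 0.23, the call made among these values.

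Whether the allele effect differs between tissues was tested as an interaction, hippocampal minus cerebellar change, over 35 libraries. edgeR called 0 of 9, with 4 at a raw p under 0.05, and 1.63 percent of all genes, of which 2127 had a raw p under 0.05. DESeq2 called 1, Acan, and 3.1 percent of all genes. Negative values were seen in 8 of 9, with a median of -0.18 beside -0.01 for all genes. For Acan the difference was -1.34 (SE 0.368, adjusted p = 0.0519). In edgeR its change per lost allele was 1.04 in the cerebellum (adjusted p = 0.0566) and -0.30 in the hippocampus (adjusted p = 0.0738), neither of them called. The interaction of Acan was called with all 18 hippocampal libraries (adjusted p = 0.0495), and without the libraries high in either marker list it was -0.92 (adjusted p = 0.147). In the paired fit, blocked by animal, it was -1.35 (adjusted p = 0.0780). Leaving out Sample_933, Sample_1160, Sample_1189, Sample_1219 or Sample_1433 also brought the interaction of Acan past the threshold. It was -0.52 (adjusted p = 0.999) with the number covariate, where edgeR called 0 of the 9, and 0 had a raw p under 0.05, beside 0.121 percent of all genes called.

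Ncan had an interaction of -0.28 (adjusted p = 0.0946), Bcan of -0.20 (adjusted p = 0.269) and Hapln4 of -0.18 (adjusted p = 0.189). The remaining 5 lay between -0.30 (Tnr) and 0.20 (Tnc). Related genes whose allele effect did differ were Sema3a at -0.86 (adjusted p = 8.06e-05), Chsy3 at -1.33 (adjusted p = 0.00135) and Tnxb at -0.55 (adjusted p = 0.00540). Sema3a and Chsy3 rose in the cerebellum and were not called in the hippocampus, and Tnxb fell in the hippocampus and was not called in the cerebellum. The interaction of Tnxb was lost with the number covariate (-0.39, adjusted p = 0.531) and without libraries high in markers (-0.47, adjusted p = 0.0560).

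Sex was a further comparison, over all genotypes, given as female minus male. edgeR called 0 of 9 in the cerebellum, where 0.0499 percent of all genes were called, with 0 of the 9 at a raw p under 0.05 and 475 of all genes. In the hippocampus it called 0 of 9 as well, where 0.907 percent were called, with 3 of 9 and 2308 of all at a raw p under 0.05. DESeq2 was not run for sex. Those 3 were Tnr at -0.44 (adjusted p = 0.0695), Ncan at -0.18 (adjusted p = 0.148) and Hapln4 at -0.16 (adjusted p = 0.269).

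Across the 35 libraries, the genes most like each of the 9 tested genes (Has2 was too low) were found among 13586 by the root mean square difference between log2 CPM profiles standardised within each tissue, so tissue differences carry no weight. The median difference from all genes was 1.37 for Acan. Tnr had the lowest values, with Kcnq3 at 0.383 and Lsamp at 0.399. Acan was nearest to Nefl at 0.490 and Kcnab2 at 0.501, both of large axons, and Bcan to Miat at 0.489. Ncan was nearest to Cx3cl1 at 0.546, Hapln1 to Gpc5 at 0.598, Vcan to Usp53 at 0.655 and Hapln4 to Bcat1 at 0.659. Tnc was nearest to Col1a1 at 0.789, a collagen of meningeal fibroblasts, and Has3 to Mknk1 at 0.837, the highest of these values.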

How the data were processed

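The deposited tables hold raw counts of reads per gene, which the authors made after alignment with STAR 250a, per their processing notes; the counting strand and annotation are not given in the sources used here. The filter kept a gene with 6 or more libraries above 1 CPM. Counts were scaled by TMM and fitted in edgeR 4.0.16 (R 4.3.3) by quasi-likelihood F-tests on lost alleles and sex, with Benjamini-Hochberg FDR under 0.05. The tissue contrast and the interaction used 35 libraries of both tissues in 1 fit. RPKM used the exon length given with the counts. The hippocampal library of Sample_1160 was left out: the study left out an outlier that it does not name. Both tissues came from the same animals; over 17 animals, deviations from group means in the tissues had a median correlation of 0.162 (-0.223 to 0.303), with 13 above 0.1.

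The genes and lists were chosen with earlier results of these data known. Named are the 10 genes, Pogz, and from each list up to 4 called genes per tissue with the smallest adjusted p and, between tissues, the 2 smallest in each direction above 1 CPM; of marker lists fewer are named. Other names, such as Mmp17, were added after their values were seen. Alternatives were other scaling, DESeq2 1.42.0, no filter, a bias-adjusted fit, no sex term, genotype as a factor, a number covariate, all 18 hippocampal libraries, blocking by animal and leaving out each animal. Marker covariates and omissions, sex with all 18 libraries and the permutation within animals were added after the data were seen. Scripts were tested on simulated data.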

Additional observations from a re-analysis of the deposited data

Results flagged for a closer look

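In each group of 5 or 6 libraries the highest and the lowest value of each of the 10 genes were compared with the rest of the group by Dixon's ratio. Of 60 groups 9 held a value far from the others, and chance gives about 1 in 20.

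In the cerebellum, Acan was far above the other controls in Sample_1155, at 1.84 CPM. Bcan was at 286 CPM in cKO+/- Sample_1433, Hapln4 at 291 CPM in cKO-/- Sample_1385 and Tnr at 69.7 CPM in cKO+/- Sample_1120, each the highest of its group.

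In the hippocampus, Acan was lowest in cKO-/- Sample_1371 at 4.93 CPM, and Hapln4 lowest in cKO+/- Sample_1120 at 115 CPM. Bcan was highest in cKO-/- Sample_936 at 368 CPM. Tnc was highest at 51.1 CPM in cKO-/- Sample_1219 and, among controls, at 34.4 CPM in Sample_1129. The hippocampal library of Sample_1160, left out of the hippocampal fits other than those with all 18 libraries, held 502 CPM of Bcan, above every control.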

How the results depend on the processing

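All 9 tissue differences kept their direction and their call under other scaling, DESeq2, no filter, all 18 hippocampal libraries, blocking by animal and every fit without 1 animal. Pogz fell in every allele fit, and the fall was called in each except cerebellar cKO+/- against control (-0.36, adjusted p = 0.153). Acan and Has2 rest on few reads in the cerebellum, and the causes of the changes below were not tested.

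Genes called in the cerebellum were 48 in cKO+/- against control, 308 with the number covariate, 896 with the marker covariate and 652 without the 4 libraries. Of the 9 genes DESeq2 called 2, cKO-/- against control called Acan and not Ncan, and 0 were called with no filter (Ncan at an adjusted p of 0.0538), in cKO+/- against control, and in the other 3 fits just named. Without 1 animal, 899 (Sample_1385) to 2555 (Sample_1160) genes and 0 to 2 of the 9 were called. The hippocampus gave 1056 genes by DESeq2, with 2 of the 8 members that had a p-value there. It gave 246 with all 18 libraries, 5 in cKO+/- against control, 68 with the number covariate, 154 without the choroid-rich libraries, and without 1 animal 278 (Sample_1371) to 929 (Sample_936), with 0 to 3 of the 9 (3 without Sample_1129). The interaction gave 461 by DESeq2, 18 with the number covariate and 106 without libraries high in markers. Acan, 1 of the 9, was called there by DESeq2, the bias-adjusted fit and all 18 libraries. Without 1 animal it gave 115 (Sample_1190) to 464 (Sample_1160) genes and 0 to 1 of the 9. With animal as a replicate block the interaction called 354 genes and 0 of the 9 (Acan -1.35, adjusted p = 0.0780), and the paired fit changed no other call among them.

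Directions turned in the cerebellum with the number covariate for Bcan (-0.0414), Hapln1 (-0.132), Hapln4 (-0.0272) and Sst (-0.0578), with the marker covariate for Bcan (-0.00309) and Hapln1 (-0.100), and without the 4 libraries for Hapln1 (-0.0735) and Hapln4 (-0.0244). In hippocampal cKO+/- against control Bcan was at 0.00495 and Vcan at -0.0483. Between tissues, Pogz was at 0.0551, Slc17a6 at -0.42 and Kl at -0.00234 in cKO+/- animals, and Slc17a6 at -0.90 in cKO-/-. The interaction of Has3 was 0.000615 with other scaling, 0.00316 by DESeq2, 0.00488 with no filter, 0.0144 with the number covariate, 0.0141 with the replicate block and 0.0232 without libraries high in markers. Vcan was at 0.0148 and Hapln1 at 0.228 with the number covariate, and Hapln1 at 0.145 without those libraries. Female minus male Bcan was 0.0665 in all 18 hippocampi. Without 1 animal, ranges crossed 0 for cerebellar Hapln4 (-0.0252 to 0.0585), hippocampal Tnr (-0.103 to 0.00413), Pogz between tissues (-0.0654 to 0.0405), and the interactions of Vcan (-0.0911 to 0.00447), Hapln1 (-0.166 to 0.0513), Tnc (-0.0475 to 0.485) and Has3 (-0.0428 to 0.0665).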
